A study of Rattus norvegicus with 28 samples.

Results

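Intestinal fat absorption and lipoprotein secretion were followed through 9 genes in the terminal ileum of newborn rats. They were Fabp1, Fabp2 and Fabp5, which encode fatty acid binding proteins, the apolipoprotein genes Apoa1, Apoa4, Apob, Apoc3 and Apoe, and Acsl4, which encodes a long-chain acyl-CoA synthetase. The genes were chosen by name, though with earlier results of these data known. They are 9 of the 4736 genes named on the array and were read by 19 probe sets, of which 17 passed a filter on low signal. All 9 genes entered the tests, among 3185 genes in all.

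The study addressed necrotizing enterocolitis, in which the bowel of a newborn becomes inflamed and dies, with rat pups as the model. Breast-fed pups were compared with pups that were formula-fed and also exposed to hypoxia 3 times a day, with 3 pups killed in each regimen on each of days 1, 2, 3 and 4 of life. A further 4 newborns were unfed. Total RNA from the ileum of single pups was hybridised to 28 arrays. No group had formula without hypoxia, and the effects of the 2 cannot be told apart. The labels give no strain and no sign of whether a given pup had developed the disease. They call the arrays individual, so p-values measure the spread between pups of a group, and the small number of arrays limits the precision on single days.

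Dietary fat is split in the gut lumen and taken up by enterocytes, the absorptive cells of the villus. Binding proteins carry the fatty acids inside the cell, acyl-CoA synthetases activate them, and the triglyceride built from them is packed around apolipoprotein B into chylomicrons that leave toward the lymph. Milk makes fat the main fuel of a suckling rat, and the terminal ileum is the last stretch of small bowel that the fat reaches.

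Upstream sequence is shown for 3 of the genes that had 1 RefSeq promoter entry. Fabp5, Apoa1, Apob and Apoc3 had 0 entries and could not be shown. Fabp1 and Fabp2 encode related proteins of the enterocyte but, under formula and hypoxia, differed in opposite directions from unfed newborns, and Acsl4 separated the regimens. The 250 bases before each gene's start come from RefSeq, build GRCr8, and are written 5′ to 3′ on the gene's strand. Capitals mark matches, on either strand, to any of 4 motifs. The core of a site type bound by HNF4 receptors was searched as CAAAGNNCA. The box that places the start of many genes was searched as TATAAA. The site of the zinc finger factors named after it was searched as AGATAA. The site bound by Sp1 and its relatives was searched as GGGCGG.
Fabp1 (chr4:104749090-104749339, plus strand): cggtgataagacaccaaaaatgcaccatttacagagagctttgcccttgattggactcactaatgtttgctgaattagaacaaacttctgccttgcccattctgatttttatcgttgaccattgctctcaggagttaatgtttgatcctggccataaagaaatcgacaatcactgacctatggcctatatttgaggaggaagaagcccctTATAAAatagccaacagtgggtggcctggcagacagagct
Fabp2 (chr2:213724379-213724628, plus strand): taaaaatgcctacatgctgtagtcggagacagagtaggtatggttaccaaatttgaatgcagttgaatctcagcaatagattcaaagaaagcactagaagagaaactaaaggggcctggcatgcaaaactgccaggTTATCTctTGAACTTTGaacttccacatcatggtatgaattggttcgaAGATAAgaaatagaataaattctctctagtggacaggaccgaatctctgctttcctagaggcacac
Acsl4 (chrX:110803262-110803511, minus strand): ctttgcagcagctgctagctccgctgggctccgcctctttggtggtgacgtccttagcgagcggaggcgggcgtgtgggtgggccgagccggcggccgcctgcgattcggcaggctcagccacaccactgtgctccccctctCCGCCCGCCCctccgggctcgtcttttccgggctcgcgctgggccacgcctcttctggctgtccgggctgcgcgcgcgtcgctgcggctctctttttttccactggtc
The Fabp1 stretch held a start-placing box that begins 40 bases before the start. The Fabp2 stretch held a match to the HNF4-type core, 106 bases before the start, between zinc finger factor sites at 114 and 66 bases. The Acsl4 stretch held a pair of Sp1-type sites that share bases, at 108 and 104 bases. Of all 33469 RefSeq rat promoters of this length, 12.9% held the start-placing box, 5.22% the HNF4-type core, 10.3% the zinc finger factor site and 30.5% the Sp1-type site. A match describes letters and says nothing of binding in these pups.

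The labelled tissue was checked first. Fabp6, which encodes the bile acid binding protein of the ileum, had a signal of 418 to 1740 in the 28 arrays, and Slc10a2, the ileal bile acid carrier, 12.3 to 78.8. Arrays with lost signal were counted over abundant probe sets, those with a median above 500 in the other arrays, and a probe set counted as lost when it read more than 16-fold below that median. Breast-fed day 3 replicate 3 had 69 such losses and breast-fed day 4 replicate 2 had 48, against 0 to 2 in the other 26 arrays. Results are given with both arrays unless stated. Arrays carry accession numbers in 2 separate runs of 19 and 9. The second run held all breast-fed day 4 arrays, 3 of the 4 unfed arrays, 1 breast-fed array each of day 1 (replicate 2) and day 3 (replicate 3), and replicate 3 of day 4 under formula and hypoxia. The labels do not say that a run is a batch.

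Formula and hypoxia set Fabp5 and Acsl4 apart from breast feeding in opposite directions. Averaged over days 1 to 4, Fabp5 was 1.62-fold lower (95% interval 1.30 to 2.01) and Acsl4 was 1.96-fold higher (1.40 to 2.75) than in breast-fed pups of the same day. These 2 of the 9 genes passed the test (limma, adjusted p below 0.05 over all 3185 genes), against 11.4% of all genes. The median log2 difference of the 9 genes was 0.21, against 0.02 over all genes tested. In bulk tissue, fewer cells of a type and less RNA per cell cannot be told apart.

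**Figure D1:**
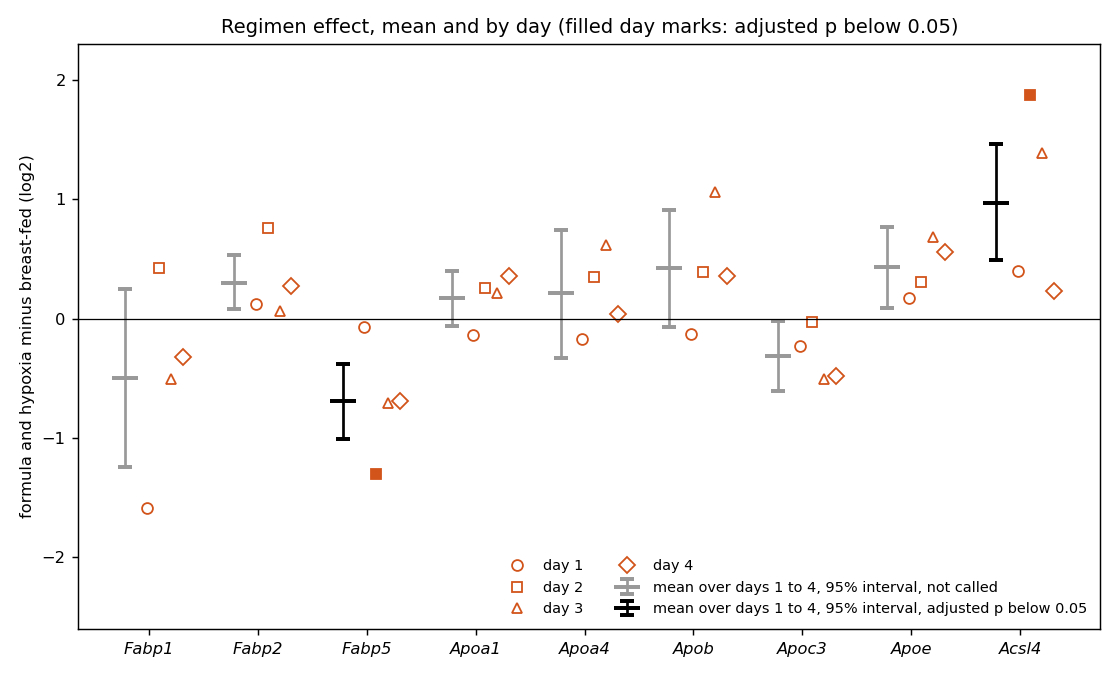
Log2 difference between formula and hypoxia and breast feeding (vertical axis) for each gene (horizontal axis), as the mean over days 1 to 4 with its 95% interval and for each day. The intervals of Fabp5 (-0.69) and Acsl4 (0.97) are drawn in black for an adjusted p below 0.05, and both have their largest daily value on day 2.

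Fabp5, the epidermal fatty acid binding protein, is found in many cell types. In unfed newborns its normalized signal was 1200, 803, 1690 and 1190. Breast-fed pups gave 1150, 1670 and 950 (day 1), 4150, 3340 and 4740 (day 2), 4460, 4180 and 4150 (day 3) and 3480, 5410 and 4430 (day 4). Pups on formula and hypoxia gave 1460, 1490 and 720 (day 1), 1310, 1460 and 2290 (day 2), 3000, 2220 and 2650 (day 3) and 3430, 2790 and 2060 (day 4). The regimens overlapped on day 1, and on days 2, 3 and 4 each breast-fed array was above each formula and hypoxia array of its day. The breast-fed signal was already high on day 2, when that under formula and hypoxia still overlapped that of unfed newborns.

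The regimen difference of Fabp5 on the log2 scale was -0.69 ± 0.15 (SE) as a mean over days (limma, adjusted p = 0.00369), and 10 of the 12 formula and hypoxia arrays lay below the breast-fed mean of their day. By day it was -0.07 on day 1, -1.30 ± 0.31 on day 2, -0.71 on day 3 and -0.69 on day 4. On day 2 the level was 2.46-fold lower (1.59 to 3.80; adjusted p = 0.0304). Fabp5 and Acsl4 were the 2 of the 9 genes called on day 2, against 1.48% of all genes. On day 1 the test called 0 of the 9 genes (1 at unadjusted p below 0.05) and 0.283% of all genes. On day 3 it called 0 (3 unadjusted) against 2.01%, and on day 4 0 (1 unadjusted) against 1.98%. The mean difference was also called with the accession run as a term (-0.69, adjusted p = 0.0169) and within the first run, days 1 to 3 (-0.66, 0.0391).

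The day 2 call of Fabp5 rests on few arrays. Its adjusted p was 0.104 without breast-fed day 2 replicate 1, 0.0506 without replicate 2 and 0.146 without replicate 3. It was 0.151 without formula and hypoxia day 2 replicate 1 and 0.139 without replicate 2. It was 0.0690 with the deposited scaling and 0.230 with a common median, where the difference was -1.27 and -1.26.

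In breast-fed pups Fabp5 rose from day 1 to day 4 by 1.83 ± 0.31 on the log2 scale, a 3.56-fold change (2.3 to 5.5; limma, adjusted p = 0.00491). It was the only one of the 9 genes called in that comparison, against 0.314% of all genes. Leaving out breast-fed day 1 replicate 3 gave an adjusted p of 0.0646, and with a common median 0.124. With the run as a term it was 0.0346, and within the second run, with 1 array on day 1, the rise was 1.25 (0.459). From day 1 to day 2 the breast-fed rise was 1.72 ± 0.31 (3.28-fold, 2.12 to 5.08; adjusted p = 0.0255). This comparison was added after the values were seen, and Fabp5 was the only gene of the 3185 that passed, which is 0.0314%. It passed only with particular arrays. The adjusted p was 0.225 and 0.237 without breast-fed day 1 replicate 1 or 3, and 0.205, 0.0534 and 0.178 without breast-fed day 2 replicate 1, 2 or 3.

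With formula and hypoxia, Fabp5 rose 2.32-fold from day 1 to day 4 (1.5 to 3.59; log2 1.21 ± 0.31, limma, adjusted p = 0.0113). This rise lost its call without formula and hypoxia day 1 replicate 3 (0.0731) or day 4 replicate 1 (0.0810), and with a common median (0.189). From day 1 to day 2 the value was 0.49 ± 0.31. None of the 9 genes was called in that comparison (0 at unadjusted p below 0.05), against 0% of all genes (215 unadjusted). The change of the regimen effect from day 1 to day 2 was -1.22 ± 0.43, at an unadjusted p of 0.00906 and an adjusted p of 1 in limma. In that test 0 of the 9 genes were called (3 unadjusted), against 0% of all genes (94 unadjusted). An F test over the 4 daily regimen effects likewise called 0 of the 9 genes (0 unadjusted), against 0.0942% of all genes, with an adjusted p of 0.703 for Fabp5 and 0.690 for Acsl4.

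A few markers of several cell types also differed between the regimens as a mean over days. Of 13 macrophage markers, 8 were on the array and 6 were tested, of which Ctss (-0.82 on the log2 scale) and Aif1 (-0.99) were lower and 0 higher. The median of the 6 was -0.11, against 0.02 over all genes, of which 11.4% were called. The summed signal of the 8 was 2620 to 4150 in breast-fed arrays and 1650 to 3220 under formula and hypoxia, with a median of 1900 for Ctss alone. Clec10a, with a median signal of 9.51, and Csf1r, with 23.5, were the lowest of the 8, and none was at 0. Of 4 red cell markers tested, 3 were higher under formula and hypoxia. So were 2 of 16 enterocyte markers (median -0.12) and 1 of 5 each of the epithelial, fat tissue and exocrine pancreas markers. Lower were 1 of 7 smooth muscle markers (median -0.25) and 1 of 9 liver markers. The ileum list and that of enteric neurons and glia had 0 calls. The part of any of these in the Fabp5 and Acsl4 differences was not tested.

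**Figure D2:**
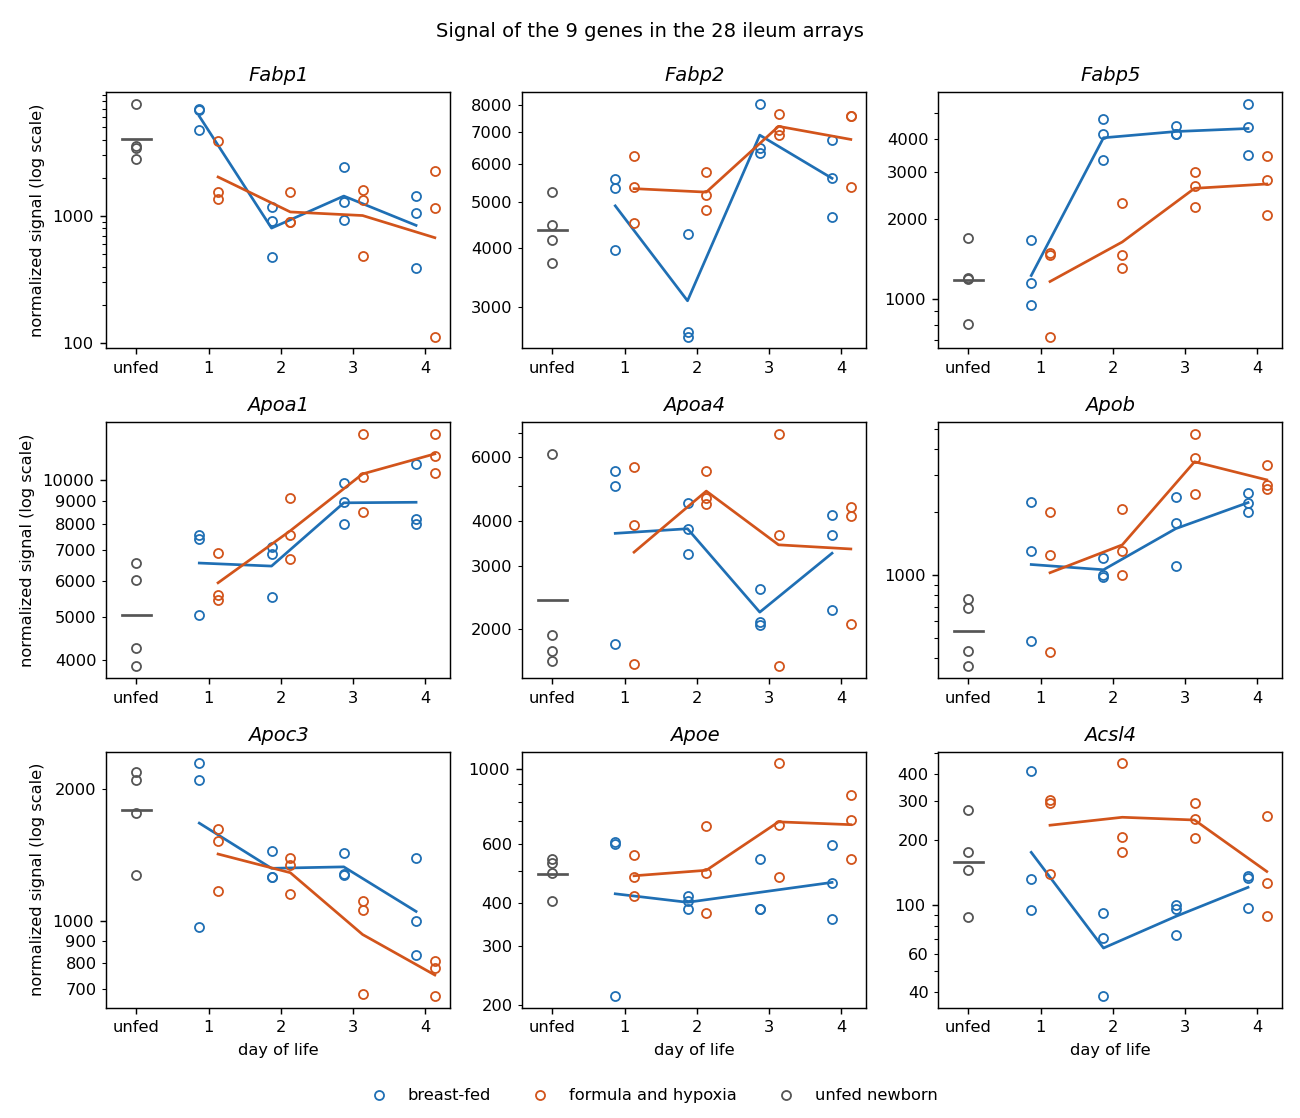
Normalized signal (vertical axis, log scale) of each of the 9 genes against day of life (horizontal axis) in breast-fed, formula and hypoxia and unfed arrays. Each circle is 1 array and each line joins or marks the mean of log2 values. From day 2 on, Fabp5 lies between 3340 and 5410 in breast-fed arrays and between 1310 and 3430 under formula and hypoxia.

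Acsl4 joins coenzyme A to long-chain fatty acids and prefers arachidonic acid. Breast-fed pups gave 415, 95.6 and 132 (day 1), 70.9, 38.3 and 92.6 (day 2), 100, 73.1 and 95.8 (day 3) and 97.0, 136 and 134 (day 4). Pups on formula and hypoxia gave 139, 296 and 306 (day 1), 450, 176 and 205 (day 2), 295, 250 and 203 (day 3) and 89.5, 256 and 126 (day 4). The unfed arrays read 146, 275, 176 and 88.0. On days 2 and 3 all formula and hypoxia arrays were above all breast-fed arrays of the day, and on days 1 and 4 the regimens overlapped. Breast-fed day 1 replicate 1, at 415, was the highest breast-fed array.

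The mean regimen difference of Acsl4 was 0.97 ± 0.24 on the log2 scale (limma, adjusted p = 0.00810), with 10 of 12 formula and hypoxia arrays above the breast-fed mean of their day. It was 1.87 ± 0.47 on day 2, a 3.66-fold difference (1.87 to 7.16; adjusted p = 0.0444), and 1.39 on day 3 (0.127), beside 0.40 on day 1 and 0.23 on day 4. The mean difference was called with a term for the run (0.88, adjusted p = 0.0476) and inside the first run (1.08, 0.0368). It was also called without both arrays that had lost signal (1.00, 0.0118).

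Acsl4 had a second probe set above the low-signal filter, with the same direction of the regimen difference. In a fit of all 8740 non-control probe sets, these 2 had mean regimen differences of 0.97 and 0.78, at limma adjusted p of 0.0153 and 0.00247. The second read 73.7 to 186 in breast-fed arrays, 108 to 341 under formula and hypoxia and 84.7 to 199 in unfed arrays. Its day 2 difference was 1.46 (adjusted p = 0.0212). The 2 probe sets placed the unfed level differently. Mean signals in breast-fed, formula and hypoxia and unfed arrays were 123, 233 and 171 at the first and 120, 219 and 128 at the second. On days 2 to 4 Acsl4 was not called against unfed newborns in either regimen. Under formula and hypoxia it was called in 6 alternatives, all read at the second probe set. The remaining probe set read 3.18 to 10.1 in breast-fed arrays and 4.09 to 55.8 under formula and hypoxia, mostly under the filter of 24.0, and gives no usable size.

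The single-day call of Acsl4 was less steady than its mean. On day 2 the adjusted p was 0.108, 0.235 and 0.0517 without breast-fed day 2 replicate 1, 2 or 3, and 0.229, 0.0534 and 0.0916 when replicate 1, 2 or 3 of day 2 under formula and hypoxia was left out. It was between 0.0508 and 0.0538 without any one of 5 other arrays: breast-fed replicate 3 of day 1, replicates 1 and 2 of day 3 and replicate 1 of day 4, and replicate 3 of day 4 under formula and hypoxia. It was 0.153 with the deposited scaling, 0.0869 with a common median and 0.0596 within the first run. In 7 fits that left out 1 array, the second probe set had the higher mean and took the gene's place. Day 3 was then called without replicate 1 of breast-fed day 1 (0.0395), without replicate 2 of day 1 (0.0415) or of day 4 (0.0477) under formula and hypoxia, or without unfed replicate 1 (0.0329) or 2 (0.0197).

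**Figure D3:**
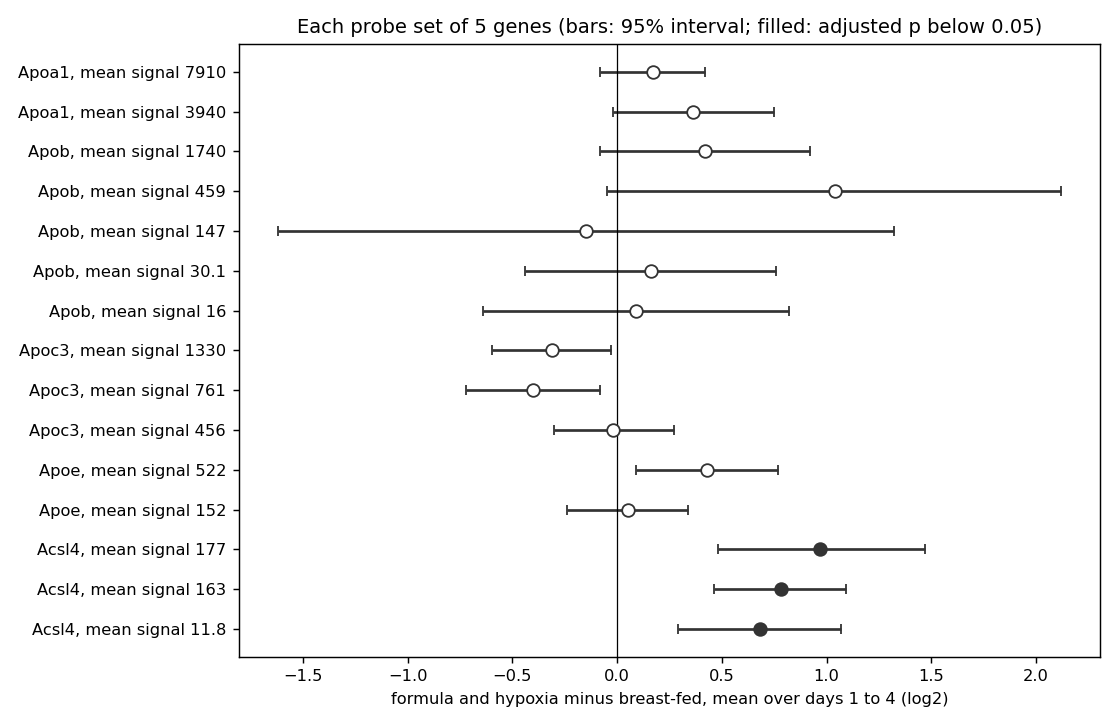
Mean regimen difference over days 1 to 4 on the log2 scale (horizontal axis) with its 95% interval for each probe set of the 5 genes read by more than 1 (vertical axis, with mean signal). Points are filled for an adjusted p below 0.05 among 8740 probe sets, as for Acsl4, whose dimmest probe set (mean signal 11.8) lies under the filter of 24.0, and those of Apob range from -0.15 to 1.04.

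Fabp1, the liver-type fatty acid binding protein, is one of the most abundant lipid carriers of the upper small bowel. Its signal was 3540, 7650, 2820 and 3440 in unfed newborns. Breast-fed pups gave 4790, 6860 and 6970 (day 1), 916, 478 and 1180 (day 2), 1300, 926 and 2450 (day 3) and 1060, 1440 and 392 (day 4). Pups on formula and hypoxia gave 1370, 3930 and 1550 (day 1), 897, 1550 and 896 (day 2), 1330, 481 and 1600 (day 3) and 112, 1160 and 2270 (day 4). Every fed array of days 2 to 4 was below every unfed array. On day 1 the 3 breast-fed arrays were above the 3 formula and hypoxia arrays.

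Averaged over days 2 to 4, Fabp1 was 4.04-fold below unfed newborns in breast-fed pups (1.89 to 8.64; log2 -2.01 ± 0.53, limma, adjusted p = 0.0199). The formula and hypoxia level was 4.44-fold below (2.07 to 9.50; -2.15 ± 0.53, adjusted p = 0.00734). Both comparisons share the unfed arrays and were added after the values were seen. Of the 9 genes, 4 were called in the breast-fed comparison (3 higher, 1 lower), against 7.1% of all genes. In the other regimen 6 were called (4 higher, 2 lower), against 16% of all genes. The median log2 difference of the 9 was 0.18 and 0.54, against 0.01 and 0.04 over all genes.

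In breast-fed pups the call of Fabp1 was lost at -2.05 (0.0623) without unfed replicate 1 and at -1.72 (0.0604) without unfed replicate 2, which had the highest unfed signal of 7650. Leaving out 1 array did not end the call under formula and hypoxia. With the accession run as a term the value was -1.70 (0.0464) in breast-fed pups and -1.49 (0.112) under formula and hypoxia. Within the first run, which holds 1 unfed array, it was -2.30 (0.104) under formula and hypoxia.

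From day 1 to day 4 the Fabp1 difference was -2.85 ± 0.72 in breast-fed pups (limma, adjusted p = 0.0834) and -1.58 ± 0.72 under formula and hypoxia (0.154). Without formula and hypoxia day 4 replicate 1, at 112 the lowest array for this gene, the breast-fed value passed the test (-2.85, 0.0137). The value under formula and hypoxia passed without day 4 replicate 3 (-2.45, 0.0312) and within the first run (-2.46, 0.0308). The regimen difference of Fabp1 was -1.59 ± 0.72 on day 1 (adjusted p = 0.503) and -0.50 ± 0.36 as a mean over days (0.408).

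Fabp2, the intestinal fatty acid binding protein, is a marker of mature enterocytes. It read 4470, 4150, 3710 and 5250 in unfed newborns. Breast-fed pups gave 3950, 5340 and 5570 (day 1), 4270, 2660 and 2600 (day 2), 6480, 6320 and 8030 (day 3) and 4640, 6750 and 5610 (day 4). Formula and hypoxia arrays gave 4510, 6230 and 5380 (day 1), 4810, 5780 and 5160 (day 2), 6910, 7070 and 7650 (day 3) and 5380, 7580 and 7580 (day 4). The day 2 regimens did not overlap, with the breast-fed arrays lower. On the other days they overlapped.

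Fabp2 rose 1.45-fold above unfed newborns under formula and hypoxia (1.16 to 1.83; log2 0.54 ± 0.16, limma, adjusted p = 0.0231), beside 0.18 ± 0.16 in breast-fed pups (0.567). The call was lost without unfed replicate 3 (0.108), with the deposited scaling (0.109) and within the first run (0.50, 0.346). With a common median the value was 0.18 (0.752). The mean regimen difference was 0.30 ± 0.11 (adjusted p = 0.0748) and that of day 2 0.76 ± 0.22 (0.0925). The mean passed without both arrays that had lost signal (0.36, 0.0366), without breast-fed day 2 replicate 1 (0.36, 0.0280) and without formula and hypoxia day 4 replicate 1 (0.34, 0.0486). Day 2 passed without breast-fed day 2 replicate 1 (0.99, 0.0325).

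Fabp5 moved against Fabp1. It was 3.56-fold above unfed newborns on days 2 to 4 in breast-fed pups (2.58 to 4.90; limma, adjusted p = 1.98e-05) and 1.91-fold above under formula and hypoxia (1.38 to 2.63; 0.00602). The log2 differences were 1.83 ± 0.22 and 0.93 ± 0.22. With a common median the value under formula and hypoxia was 0.37 (0.437), and within the first run it was 1.00 (0.11).

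**Figure D4:**
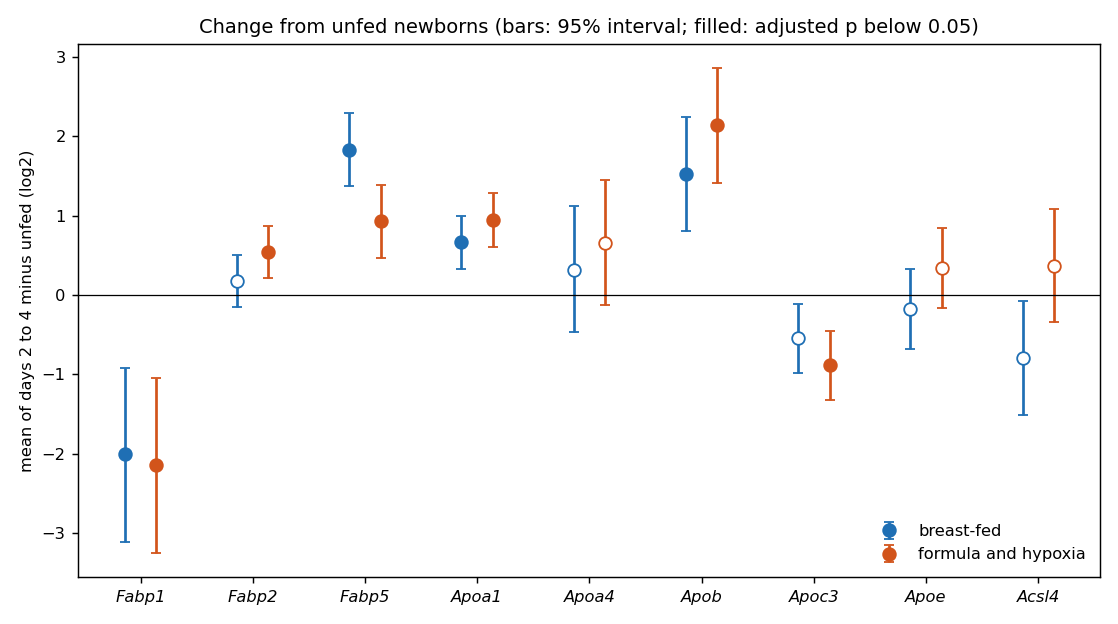
Log2 difference of the mean of days 2 to 4 from unfed newborns (vertical axis) with its 95% interval for each gene (horizontal axis), in breast-fed and in formula and hypoxia pups. Filled points have an adjusted p below 0.05, and Fabp1 is low in both regimens (-2.01 and -2.15) where Apob is high (1.53 and 2.14).

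The apolipoproteins did not move as a block. Apob and Apoa1 rose above unfed newborns in both regimens, Apoc3 fell under formula and hypoxia, and Apoa4 and Apoe were not called in any comparison. None of the 5 was called for a regimen difference.

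Apob encodes the structural protein of chylomicrons and was read by 5 probe sets. The most abundant read 366, 765, 699 and 431 in unfed newborns. Breast-fed pups gave 2220, 1300 and 486 (day 1), 978, 1210 and 1000 (day 2), 2370, 1100 and 1770 (day 3) and 2470, 2000 and 2210 (day 4). Formula and hypoxia arrays gave 430, 1250 and 2000 (day 1), 2060, 1300 and 1000 (day 2), 4740, 3630 and 2430 (day 3) and 2580, 2680 and 3340 (day 4). All fed arrays of days 2 to 4 were above all unfed arrays, and on day 1 both regimens overlapped the unfed range.

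Averaged over days 2 to 4, Apob was 2.89-fold above unfed in breast-fed pups (1.75 to 4.77; log2 1.53 ± 0.35, limma, adjusted p = 0.00863) and 4.40-fold above under formula and hypoxia (2.67 to 7.25; 2.14 ± 0.35, 0.000239). Without unfed replicate 1 the breast-fed value was 1.34 (0.0573). With the run as a term it was 1.65 (0.00741), and under formula and hypoxia it was 2.39 (0.000933). The first run holds 1 unfed array, against which the latter was 2.68 (0.0314). The other 4 probe sets of Apob, from bright to dim, gave 0.51, 1.09, 0.21 and 0.54 under formula and hypoxia and -0.54, 0.73, -0.10 and 0.35 in breast-fed pups, and were not called. In breast-fed pups the rise of Apob was thus called at 1 of its 5 probe sets, and 2 had the opposite sign. The brightest of these 4 read 23.1 and 21.6 on the arrays that had lost signal, beside a mean signal of 459.

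Apob rose, under formula and hypoxia, 2.76-fold from day 1 to day 4 (1.40 to 5.45; log2 1.47 ± 0.48, limma, adjusted p = 0.0414). Of the 9 genes, 3 rose and 1 fell in that comparison, against 13.4% of all genes called. The Apob call was lost without any one of 5 of the 6 arrays compared. Without formula and hypoxia day 1 replicate 1 the value was 0.84 (0.282), and without day 1 replicate 2 or day 4 replicate 1, 2 or 3 the adjusted p was 0.0611, 0.105, 0.0797 and 0.113. It was 0.0567 with the deposited scaling, 0.0714 with a common median, 0.0802 with a run term and 0.135 in the first run. On day 1 Apob differed from unfed by 1.05 ± 0.45 in breast-fed pups (adjusted p = 0.766). In that comparison 0 of the 9 genes were called in limma (1 unadjusted), against 0% of all genes (186 unadjusted). Under formula and hypoxia it differed by 0.92 ± 0.45 (0.497), with 0 of the 9 called (0 unadjusted), against 0.408% of all genes.

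Apoa1, the main protein of high density lipoprotein, is made by liver and small bowel. It read 3880, 6010, 4250 and 6580 in unfed newborns. Breast-fed pups gave 5030, 7430 and 7580 (day 1), 6860, 5530 and 7120 (day 2), 8970, 8030 and 9870 (day 3) and 8030, 10900 and 8230 (day 4). Formula and hypoxia arrays gave 5570, 5440 and 6910 (day 1), 9130, 7580 and 6700 (day 2), 8520, 10200 and 12700 (day 3) and 11300, 10400 and 12700 (day 4). Every array of days 3 and 4 was above every unfed array.

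Apoa1 was 1.59-fold above unfed on days 2 to 4 in breast-fed pups (1.26 to 2; log2 0.67 ± 0.16, limma, adjusted p = 0.0134) and 1.92-fold above under formula and hypoxia (1.52 to 2.43; 0.94 ± 0.16, 0.000446). The breast-fed call was lost without unfed replicate 1 (0.0912) or 3 (0.0764). With a common median the values were 0.56 (0.254) and 0.71 (0.102). A second Apoa1 probe set gave 0.68 in breast-fed pups (0.195 among 8740 probe sets) and 1.09 under formula and hypoxia (0.0148). Against the 1 unfed array of the first run the latter comparison gave 1.34 (0.0103).

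Apoa1 under formula and hypoxia rose, from day 1 to day 4, 1.93-fold (1.40 to 2.65; log2 0.95 ± 0.22, limma, adjusted p = 0.00709). With the deposited scaling the value was 0.51 (0.314), and with a common median 0.29 (0.707). The run term gave 0.84 (0.0156), and the second probe set 0.39 (0.635 among 8740). The breast-fed difference was 0.45 ± 0.22 (0.304).

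Apoc3 slows the clearing of triglyceride-rich particles and lies beside Apoa1 and Apoa4 in the order of genes on chromosome 8. Its signal was 2100, 1270, 1760 and 2190 in unfed newborns. Breast-fed pups gave 969, 2290 and 2100 (day 1), 1440, 1260 and 1260 (day 2), 1280, 1430 and 1270 (day 3) and 835, 1390 and 999 (day 4). Formula and hypoxia arrays gave 1520, 1620 and 1170 (day 1), 1150, 1340 and 1390 (day 2), 680, 1060 and 1110 (day 3) and 811, 780 and 674 (day 4). The 3 formula and hypoxia arrays of day 4 were below all arrays of day 1 and all unfed arrays.

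Apoc3 was 1.85-fold below unfed on days 2 to 4 under formula and hypoxia (1.37 to 2.49; log2 -0.88 ± 0.21, limma, adjusted p = 0.00511), beside -0.54 ± 0.21 in breast-fed pups (0.113). Against the 1 unfed array of the first run the value under formula and hypoxia was -1.10 (0.0718). The breast-fed value passed without unfed replicate 2 (-0.71, 0.0407). Of the other Apoc3 probe sets, one gave -0.98 under formula and hypoxia (0.0088 among 8740 probe sets) and one -0.15.

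Apoc3 under formula and hypoxia fell, from day 1 to day 4, 1.88-fold (1.25 to 2.82; log2 -0.91 ± 0.28, limma, adjusted p = 0.0340). This call was lost without formula and hypoxia day 1 replicate 1 (0.0997) or 2 (0.105), or day 4 replicate 1 (0.0888), 2 (0.0680) or 3 (0.0994). It was also lost with a common median (-1.26, 0.0549), with a run term (0.0513) and in the first run (0.0749). The other Apoc3 probe sets gave -1.06 (0.0464 among 8740) and -0.02 (0.981). The mean regimen difference was -0.31 ± 0.14 (0.156), and -0.41 (0.0358) without breast-fed day 1 replicate 1.

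Markers of several cell types were read beside these changes. Of 20 enterocyte markers, 19 were on the array and 16 tested. From day 1 to day 4 under formula and hypoxia 2 were higher and 1 lower, with a median of 0.77. Over all genes 13.4% were called in that comparison, with a median of 0. The summed signal of the 19 was 10200 to 13500 on day 1 and 17300 to 18700 on day 4. It was 12000 to 16800 and 14500 to 18100 in breast-fed pups and 8900 to 17800 in unfed newborns. In the same comparison 3 of 7 smooth muscle markers (median 0.79) and 2 of 5 epithelial markers (0.91) were higher, and 2 of 4 red cell markers (-0.79) and 1 of 9 liver markers (-0.53) were lower. The smooth muscle sum was 5700 to 7070 on day 1 and 8170 to 10500 on day 4, the epithelial sum 7030 to 9460 and 14200 to 17600, and the red cell sum 16800 to 19400 and 12100 to 13900. The summed signal of 15 liver markers was 3620 to 8120 in breast-fed arrays, 2980 to 6000 under formula and hypoxia and 2750 to 6680 in unfed arrays. The largest parts of this sum came from Cps1, Afp and Serpina1, with median signals of 2110, 889 and 816. Alb had a median signal of 22.8 and Tat of 3.87. On days 2 to 4 against unfed, 3 of 16 enterocyte markers were higher and 1 lower in breast-fed pups (median 0.32). Under formula and hypoxia 4 were higher and 0 lower (0.52). Of 7 smooth muscle markers 2 were higher in each regimen (0.76 and 0.75). Of 5 epithelial markers 0 and 2 were higher, and of 4 red cell markers 3 and 0 were lower. The other lists had at most 1 call each, against 7.1% and 16% of all genes. The part of these markers in the changes of the 9 genes was not tested.

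Apoa4 and Apoe did not pass any test between groups. Apoa4, secreted with chylomicrons, read 1930, 6110, 1740 and 1640 in unfed newborns, 1820 to 5500 in breast-fed arrays and 1580 to 6970 under formula and hypoxia. Its mean regimen difference was 0.21 ± 0.26 (limma, adjusted p = 0.644), and its difference from unfed on days 2 to 4 was 0.32 ± 0.38 and 0.66 ± 0.38 (0.677 and 0.256). Without unfed replicate 2, at 6110, the value under formula and hypoxia was 1.11 (0.0418). Apoe, a ligand of lipoprotein receptors made by many cell types, read 408 to 541 in unfed newborns, 213 to 609 in breast-fed arrays and 375 to 1040 under formula and hypoxia. Its mean regimen difference was 0.43 ± 0.17 (0.0971), and a second Apoe probe set gave 0.05.

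Over all 9 groups, 7 of the 9 genes passed an F test for any difference (limma, adjusted p below 0.05), against 23.8% of all genes. This test was added after the values were seen. Apoc3 did not pass without formula and hypoxia day 4 replicate 3 (0.0580), nor Acsl4 without breast-fed day 2 replicate 1 (0.0583) or 2 (0.0836). With a common median 5 of the 9 passed, without Fabp2 (0.187) and Apoa1 (0.277), and with the deposited scaling 5, without Fabp2 (0.0556) and Acsl4 (0.0775). When the groups were put in order of their mean, the arrays of neighbouring groups overlapped at all 8 steps for 8 of the genes. For Apob they overlapped at 6 of the 8 steps.

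Across the 9 group means, Apoa1 and Apob had a Pearson correlation of 0.96 and Apoc3 correlated with them at -0.91 and -0.90. The correlation was -0.74 between Fabp1 and Fabp5 and -0.70 between Fabp5 and Acsl4. Among all tested genes, the profile most like that of Apoa1 was Clca4 (0.989), which was also nearest to Apob (0.967). Fabp1 was nearest to Gpd1 (0.929), Fabp2 to Exoc8 (0.966), Fabp5 to Ckm (0.932), Apoa4 to Fgf2 (0.880), Apoc3 to Ndufb2 (0.973), Apoe to Areg (0.962) and Acsl4 to Cacna1e (0.924). These describe 9 points that share their arrays.

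Other genes of fat handling were read from a list of 95, of which 68 were on the array and 45 were tested. In the mean regimen effect 4 were higher and 4 lower, 8 of 45 against 11.4% of all genes, with a median log2 difference of 0.15 against 0.02 over all genes. The lower genes were Fabp3, the heart-type fatty acid binding protein (-1.31 ± 0.28; limma, adjusted p = 0.00269), Scp2, a sterol carrier (-0.50, 0.0170), Acsl5, an acyl-CoA synthetase of the enterocyte (-0.57, 0.0304), and Lrp2, the endocytic receptor megalin (-0.70, 0.00238). The higher genes were Dgat1, which makes triglyceride (0.47, 0.0179), Lpl, lipoprotein lipase (0.46, 0.0219), and the transcription factors Foxa3 (0.85, 0.0330) and Cebpb (0.60, 0.0170). By role, 2 of 10 uptake and binding genes were lower, and 0 of 5 lipoprotein assembly genes were called.

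**Figure D5:**
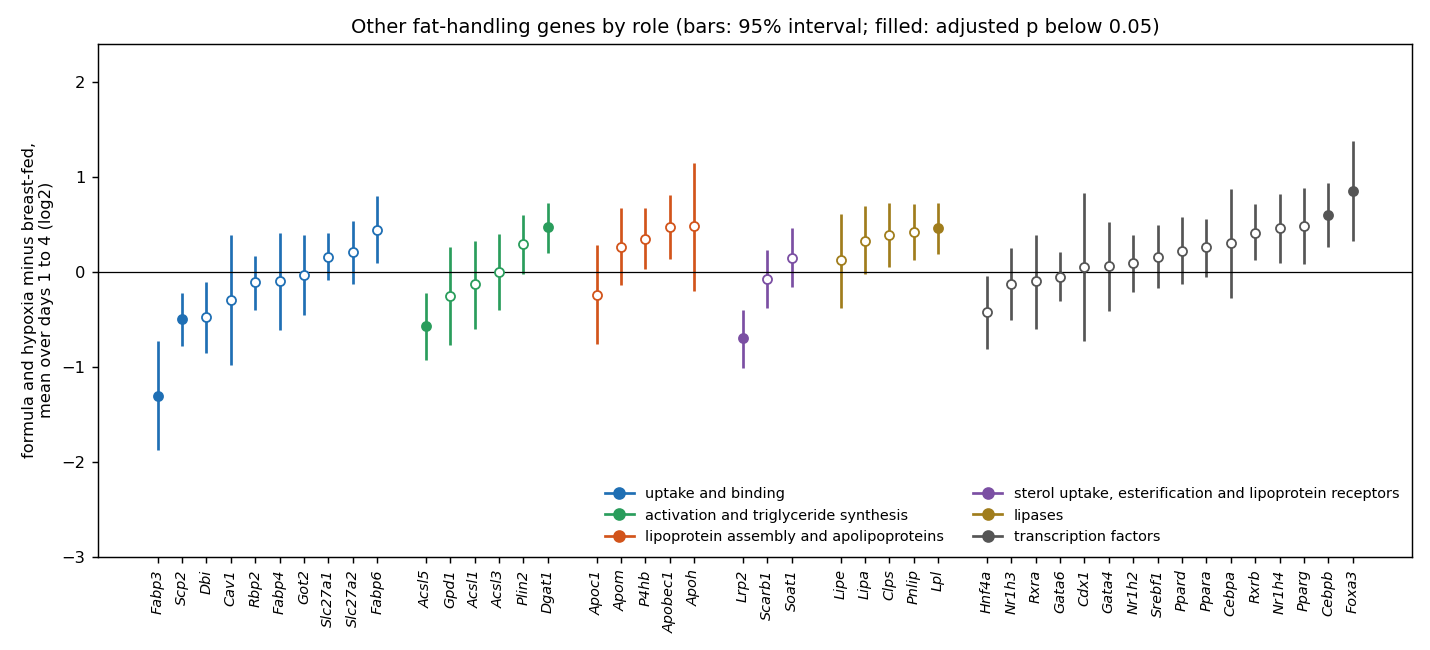
Mean regimen difference over days 1 to 4 on the log2 scale (vertical axis) with its 95% interval for the 45 other fat-handling genes tested (horizontal axis), coloured by role. The 8 filled points have an adjusted p below 0.05, from -1.31 for Fabp3 to 0.85 for Foxa3.

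Several of these calls were near the threshold. That of Acsl5 was lost without any one of 8 arrays (0.0511 to 0.0605). These were, in breast-fed pups, replicate 1 of days 1, 3 and 4 and replicate 3 of day 2, and, under formula and hypoxia, replicate 1 of days 1 and 4 and replicate 2 of days 2 and 4. That of Foxa3 was lost without any one of 8 others (0.0505 to 0.0645). These were, in breast-fed pups, replicate 3 of days 1 and 2 and replicate 1 of days 2 and 3, and, under formula and hypoxia, replicate 1 of day 1 and replicate 3 of days 2, 3 and 4. With the run as a term the adjusted p was 0.172 for Acsl5, 0.0979 for Lpl and 0.0765 for Scp2. In the first run alone 5 of the 8 calls were lost: Fabp3 (-1.10, 0.0697), Lrp2 (-0.56, 0.0594), Scp2 (-0.29, 0.326), Lpl (0.35, 0.144) and Cebpb (0.51, 0.122). The call of Lpl was also lost without both arrays that had lost signal (0.0798), and that of Dgat1 with the deposited scaling (0.0551). With a common median it was 0.264 for Dgat1 and 0.126 for Cebpb.

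Over time, Lipa, lysosomal acid lipase, was above unfed on days 2 to 4 in breast-fed pups (1.43 ± 0.25; limma, adjusted p = 0.00147) and under formula and hypoxia (1.78 ± 0.25, 7.01e-05). Dbi, which binds acyl-CoA, was below unfed in both (-1.20 and -1.83; 0.00700 and 7.01e-05). Of the 45 genes, 2 were higher and 3 lower than unfed in breast-fed pups and 4 were higher and 6 lower under formula and hypoxia, against 7.1% and 16% of all genes. The breast-fed count of 5 became 3 without breast-fed day 2 replicate 3, replicate 1 of day 3 or of day 4, or unfed replicate 1, and 8 without breast-fed day 4 replicate 3 or unfed replicate 2. It was 4 to 14 under the other alternatives, and the count of 10 was 5 to 22. From day 1 to day 4 under formula and hypoxia 3 rose and 6 fell, against 13.4% of all genes, among them Dbi (-1.78, 0.00231), Cebpb (1.67, 0.00220) and Acsl3 (1.39, 0.0187). The count of 9 became 5 without day 1 replicate 1 and 3 without day 4 replicate 1.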

How the data were processed

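The authors deposited 1 linear intensity per probe set for each of 28 Affymetrix rat arrays. The software that made these intensities is not given in the sources used here. They were quantile normalized, a pseudocount of 8 was added and log2 was taken. The 59 control probe sets were left out, and probe sets with a mean below the 40th percentile, a signal of 24.0, were not tested. Each gene was read at its probe set with the highest mean. Groups follow the labels. limma 3.58.1 in R 4.3.3 fitted 1 mean per group over all 28 arrays, with 19 residual degrees of freedom and an intensity trend, and p-values were Benjamini-Hochberg adjusted over 3185 genes. Fold changes are on the log2(signal + 8) scale and understate low genes. The fit was tested on simulated data. Probe sets that match several transcripts may mix them.

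The 9 genes and all lists were chosen with earlier results of these data known. The comparisons from day 1 to day 2, those of days 2 to 4 with unfed newborns, the day 2 minus day 1 contrast and the F test over 9 groups were added after the values were seen. Named were the 9 genes, the listed fat-handling genes called in the mean effect, up to 3 with the largest change in each other comparison, and the most alike genes by correlation. Alternatives changed the scaling, pseudocount, filter, probe set rule, trend, array weights, replicate block, accession run and the arrays used.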

Additional observations from a re-analysis of the deposited data

Results flagged for a closer look

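In the group of 4 unfed arrays, unfed replicate 2 stood far above the other 3 at 1 probe set each of 3 genes. The measure was its gap to the nearest array as a share of the group's range (Dixon's criterion at 95%). The share was 0.852 for the Fabp1 signal, 0.935 for the Apoa4 signal and 0.877 on its log2 scale, and 0.898 for the signal of the Apob probe set that read 200 there and 3.01 to 23.1 on the others. Chance passes this limit in about 1 of 20 groups, and 19 probe sets were examined on 2 scales. The summed enterocyte marker signal of that array was 17800, where the unfed median was 9600. That array was also the highest unfed array for the epithelial (11400), liver (6680) and macrophage (2880) sums. It was the lowest for the ileum (579), fat tissue (1050), exocrine pancreas (648) and enteric neuron and glia (194) sums. The part of these markers in the outlying values was not tested.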

How the results depend on the processing

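Over 43 alternatives, 88 of 6039 results for the 9 genes lost a call and 36 gained one. Most of the 6039 were for differences not called in the main fit, which had no call to lose. Losses were more frequent among some called differences. That of Acsl4 on day 2 lost its call in 17 of 42 alternatives. That of Apob from day 1 to day 4 under formula and hypoxia lost it in 12 of 42. Among differences called in the main fit or in the alternative, 0 reversed in sign. Uncalled differences were not counted as reversed, and some changed sign. The regimen difference of Apoa1 on day 1 ran from -0.34 to 0.49, and that of Fabp1 on day 4 from -1.19 to 1.38. The mean regimen differences of Fabp5 (-0.78 to -0.60) and Acsl4 (0.75 to 1.08) were called in all 42 alternatives that gave a value. The Acsl4 range mixes both of its probe sets above the filter, because the second took the gene's place in some alternatives. On day 2 the number of the 9 genes called, 2, became 0 with the deposited scaling or a common median and 1 without the filter, with 1 test per probe set or in the first run, and 3 with array weights. On day 3 it went from 0 to 1 without unfed replicate 2 and breast-fed day 1 replicate 1, an alternative chosen after seeing the data. For breast-fed day 4 against day 1 it went from 1 to 0 with a common median or in the second run, 3 with array weights and 2 without those 2 arrays. For breast-fed day 2 against day 1 it went from 1 to 0 with a common median, the run term or without those 2 arrays, and 2 with array weights. For formula and hypoxia day 4 against day 1 it went from 4 to 2 with the deposited scaling or the run term and 0 with a common median, and was 5 with array weights. Against unfed under formula and hypoxia it went from 6 to 3 with a common median and 2 in the first run, and was 7 with array weights and 8 without those 2 arrays. The causes were not tested.

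Leaving out each array in turn gave 2 to 3 genes in the mean effect, 0 to 2 on day 2, 0 to 1 on day 3, 0 to 2 for breast-fed day 4 and 0 to 2 for breast-fed day 2 against day 1. It gave 1 to 4 for formula and hypoxia day 4 against day 1, 1 to 4 and 5 to 8 for days 2 to 4 against unfed in breast-fed and in formula and hypoxia pups, and 6 to 7 for any difference. Same-numbered arrays did not deviate together (12 pairs, correlations -0.133 to 0.086). A replicate block gave 2 called genes in the mean effect, 0 on day 2, 0 for breast-fed day 2 against day 1 and 3 for formula and hypoxia day 4 against day 1.

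Over the alternatives that kept both accession runs and left out no single array, counts over all genes ranged from 203 to 593 around 364 for the mean effect, 21 to 148 around 47 on day 2, 308 to 720 around 427 for formula and hypoxia day 4 against day 1, 141 to 597 around 226 and 308 to 999 around 509 against unfed. The first run alone gave 163 for the mean effect and 176 against unfed under formula and hypoxia. Leaving out 1 array gave 19 to 28 on day 2 without any one array of that day. It gave 275 and 150 for formula and hypoxia day 4 against day 1 without its day 1 or day 4 replicate 1, 99 and 111 for breast-fed pups against unfed without unfed replicate 1 or 3, and 259 under formula and hypoxia without unfed replicate 3. On day 3 the count of 64 fell to 30 without breast-fed replicate 3 and 29 without formula and hypoxia replicate 1, and on day 4 that of 63 to 26 without breast-fed replicate 2 and 16 and 29 without formula and hypoxia replicates 1 and 2. The deposited scaling shifted the median of all genes by 0.296 for breast-fed day 4 against day 1 and 0.2 against unfed under formula and hypoxia. With 3 arrays a group, single-day differences carry wide intervals.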
